A study of Mus musculus with 4 samples.

Results

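The genomic sites described here are those at which Foxo1 was found in mouse CD4+ T cells by both ways of isolating the protein, with an antibody and by streptavidin capture of a biotinylated form. The members were selected by the measured peak positions alone. A site was taken when a peak of the antibody list and a peak of the biotin list overlapped by at least 1 bp, and the authors' common list holds the same 682 peaks, 1 antibody and 1 biotin peak for each site. No peak belonged to more than 1 pair. The antibody list held 2507 peaks, of which 2166 had no partner, and the biotin list held 723, of which 382 had none. Together they give 2889 distinct regions. The sites take up 13.6% of the antibody peaks and 47.2% of the biotin peaks. These shares are fixed by the rule and are given as a description only.

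Foxo1 is a forkhead transcription factor that binds DNA through a winged-helix domain. In resting T cells it is held in the nucleus, and signalling through PI3K and AKT phosphorylates it and moves it to the cytoplasm. It is known for activating genes of lymphocyte homing and survival in naive T cells and for its part in regulatory T cell differentiation. In chromatin immunoprecipitation followed by sequencing (ChIP-seq), the DNA fragments held by a protein are recovered and sequenced, and a peak is a stretch where fragments pile up. The summit is the position of the highest pile-up.

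The antibody ChIP used CD4+ cells of C57BL/6 mice and a Foxo1 antibody (Abcam, Ab39670), which recovers the endogenous protein. The biotin ChIP used CD4+ cells of Foxo1tagBirA mice, also labelled C57BL/6, in which the tagged Foxo1 is biotinylated by the bacterial ligase BirA and recovered on streptavidin. The series lists 4 samples in 4 groups of 1 library, both ChIPs and an input for each. The promoter that drives BirA, the age of the mice, the number of animals behind a library and a BirA-only control were not part of the sources used here. Peak lists carry no expression values, so the labelled cell type could not be checked against its marker genes.

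With 1 library in each group, no value below carries a replicate error. Position, fold and width also come from the same peaks whose overlap made the pairs, so they are given without a test. Intervals are exact Clopper-Pearson 95% intervals for shares and order-statistic 95% intervals for medians, and both cover counting error over sites only. The number of reads behind a peak is unknown. Positions are in the mouse build mm9 and count from 1. The gene and promoter tables at hand follow another build, so sites are named by position, and no gene name or sequence is given. A start and end given for a single site are those of its antibody peak, and its biotin peak can reach beyond them. Couples of neighbouring common sites are named by the span of all their peaks.

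The sites were short and spread over the genome. A pair covered a median of 114 bp from the first to the last base of its 2 peaks (quartiles 94 and 139 bp, range 24 to 417 bp). All pairs together covered 42564 bp, of which 19265 bp, or 45.3%, lay in both peaks. The antibody peak of a pair had a median width of 87 bp and the biotin peak one of 86 bp. The biotin peak was the wider of the 2 in 180 pairs and the antibody peak in 159, and 2 pairs had peaks of equal width. Across all pairs the widths of partners had a Spearman's rho of 0.04, given as a description. Partners overlap because the rule asks for it, while their widths were nearly uncorrelated.

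Most pairs overlapped over much of the shorter peak. The overlap had a median of 52 bp (quartiles 33 and 80 bp, range 2 to 278 bp). In 313 pairs (91.8%, interval 88.4 to 94.5%) it took up at least 50% of the shorter peak. One peak lay wholly within the other in 180 pairs (52.8%, 47.3 to 58.2%). In 103 of these the antibody peak was the inner one, and in 77 it was the biotin peak. The remaining pairs were staggered. The biotin peak began at the lower position in 94 of them and the antibody peak in 67.

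Each summit lay inside the partner peak in 214 pairs (62.8%, 57.4 to 67.9%). In 75 pairs (22.0%) only the antibody summit lay inside its partner, and in 39 pairs (11.4%) only the biotin summit did. In 13 pairs (3.81%, 2.05 to 6.43%) neither summit was inside the other peak. The distance between summits had a median of 20 bp (interval 18 to 22 bp), and 174 pairs (51.0%) had summits no more than 20 bp apart. In 329 pairs (96.5%) they were no more than 100 bp apart. Closeness of summits follows in part from the overlap that chose the pairs.

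The offset between summits had no preferred side. The biotin summit lay at the higher position in 171 pairs (50.1%, 44.7 to 55.6%) and at the lower in 165 (48.4%, 43.0 to 53.8%). The signed offset, biotin minus antibody, had a median of 1 bp and quartiles of -21 and 19 bp. In 5 pairs both summits fell on the same base, a set that was named after its values were seen. At these positions the folds by antibody and by biotin, in this order, were 21.1 and 4.95 (chr1:108068105), 30.2 and 6.55 (chr1:182126079), 19.5 and 13.8 (chr2:170144858), 16.5 and 4.95 (chr13:118005181), and 34.6 and 9.39 (chr14:19071208). All 5 antibody folds lay above the list's median of 9.43, as did those of 85.6% of all pairs. Of the 5 biotin folds, 2 lay below that list's median of 5.61, and 63.3% of all pairs had a biotin fold above it. With 5 sites, nothing is read from these counts. The fold is the authors' linear value for each peak, and its levels are not compared between the lists.

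**Figure D1:**
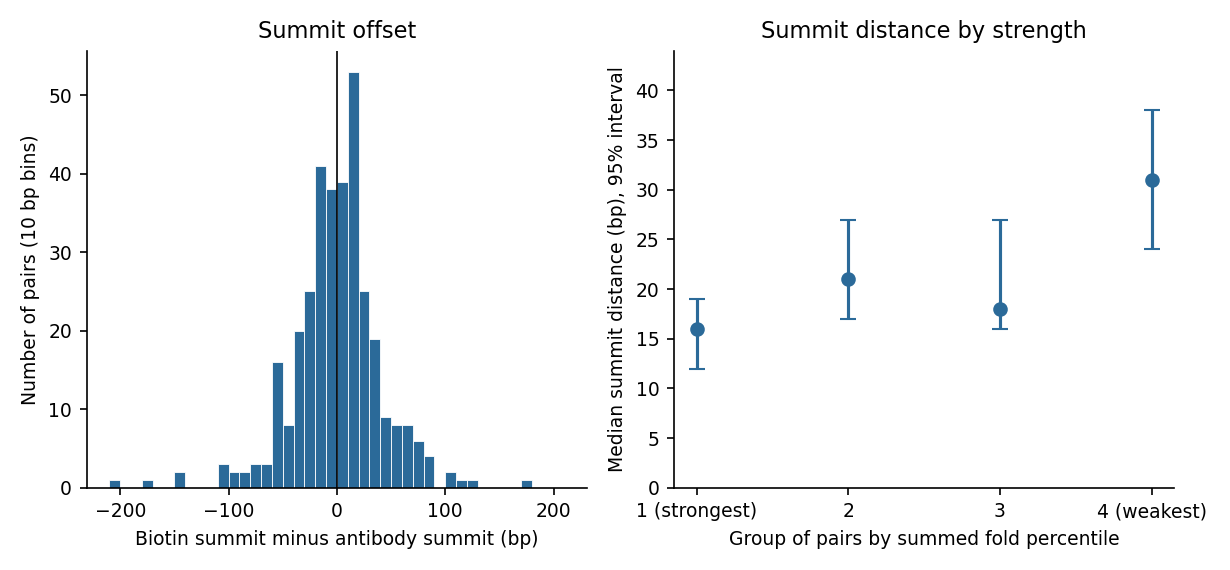
Left, the number of pairs by the position of the biotin summit minus that of the antibody summit in bp, in bins of 10 bp. Right, the median distance between summits with its 95% interval for the pairs in 4 equal groups by summed fold percentile; the strongest group had a median of 16 bp and the weakest one of 31 bp.

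Summits were closest together in the strongest group of pairs and farthest apart in the weakest. To rank sites by both lists at once, each peak was given its fold percentile, the percentage of its own list with a fold no higher, and the pairs were divided into 4 groups by the sum of both percentiles. The strongest group (85 pairs) had median folds of 30.8 by antibody and 11.3 by biotin, and a median summit distance of 16 bp (interval 12 to 19 bp). The following groups of 85 pairs each had medians of 21 bp (17 to 27 bp) and 18 bp (16 to 27 bp). The weakest group (86 pairs), with median folds of 9.25 and 4.30, had 31 bp (24 to 38 bp). The distances did not change evenly from group to group. The intervals cover counting error over sites only and are not a test between the groups. The overlap rule allows summits of wider peaks to lie farther apart, and peak widths also differed between these groups.

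Peaks were widest in the weakest group. From the strongest to the weakest group the median antibody width was 80, 81, 92 and 103.5 bp, and the median biotin width was 75, 72, 88 and 119.5 bp. The share of pairs in which each summit lay in the partner showed no such order, with 69.4% (58.5 to 79.0%), 55.3% (44.1 to 66.1%), 63.5% (52.4 to 73.7%) and 62.8% (51.7 to 73.0%). Across all pairs, the rank correlation of summit distance was -0.20 with antibody fold and -0.21 with biotin fold, and both are weak. The part of peak width in the summit distances was not tested.

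The sites lay high in the antibody list and less far up the biotin list. The antibody peak of a pair had a median fold percentile of 87.0 (interval 85.0 to 89.3), and the biotin peak one of 66.4 (62.4 to 69.4). The percentile was higher on the antibody side in 270 pairs (79.2%, 74.5 to 83.4%). When each list was divided by fold into 4 bands of equal size, 234 pairs (68.6%) came from band 1, the highest, of the antibody list and 130 (38.1%) from band 1 of the biotin list. A percentile or band places a peak within its own list, and lists of such different length do not put the 2 methods on 1 scale. The pairs took up 13.6% of the antibody list and 47.2% of the biotin list, so their median percentile could not be as high in the latter. Biotin band 1 held 180 peaks, too few for all pairs, whereas antibody band 1 held 626. The contrast between the lists is in part fixed by these shares, and nothing is read from it.

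Both methods placed a site in band 1 in 113 pairs (33.1%, 28.2 to 38.4%). The largest group after these, 59 pairs, stood in band 1 by antibody and in band 2 by biotin. In 36 pairs (10.6%, 7.504 to 14.3%) both peaks ranked in the lower 50% of their list, of which 12 were in band 4 of each. The common set thus included sites that were low by both methods. The paired folds had a rank correlation of 0.53, over sites of 1 genome that passed the limits of both lists.

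**Figure D2:**
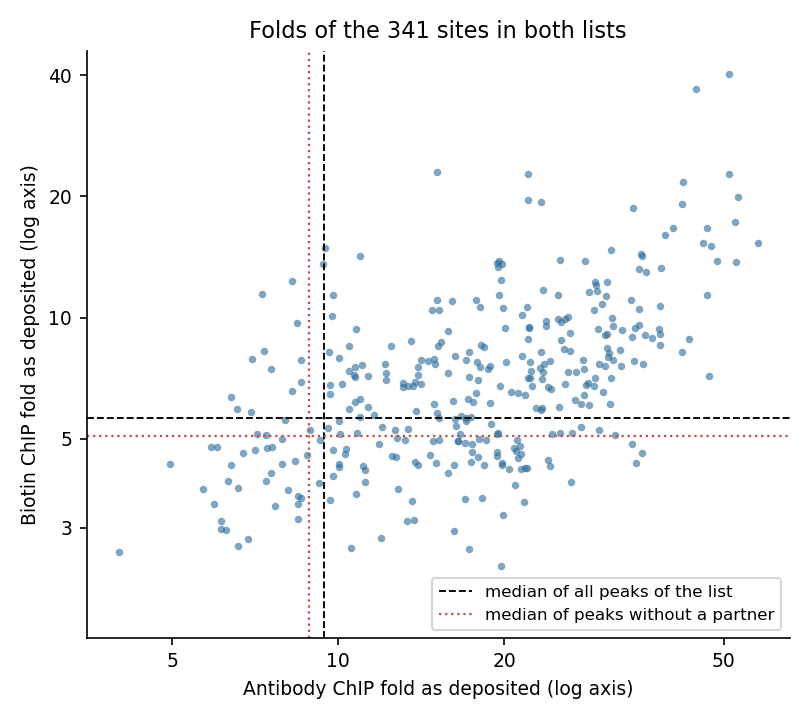
Antibody fold (horizontal) against biotin fold (vertical) for all pairs, both as deposited and on log axes. Dashed lines mark the median of all peaks of a list (9.43 antibody, 5.61 biotin) and dotted lines the median of peaks without a partner (8.85 and 5.08); most points lie to the right of the antibody medians, while many lie on or below the biotin medians.

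By the sum of their ranks in both lists, the strongest common site was at chr14:8930624-8930710, rank 5 by antibody (fold 51.1) and rank 3 by biotin (fold 40.4). Its biotin peak (8930641 to 8930705) lay wholly inside the antibody peak, and the summits were 10 bp apart. The site at chr2:19579284-19579384 followed, with ranks 2 and 11, and its peaks shared 100 of the 107 bp that they covered. At chr8:87502787-87502811, ranks 6 and 8, the antibody peak of 25 bp lay within a biotin peak of 104 bp and the summits were 4 bp apart. These 3 sites had both peaks within the first 11 ranks of their list.

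The next sites were high in both lists, with antibody peaks that were mostly short. The site at chr4:33334915-33334942 (28 bp) had ranks 14 and 4, and that at chr5:87233281-87233287 (7 bp) had ranks 4 and 17. The antibody peak with the highest fold of its list, chr3:96361724-96361742 (19 bp), had a biotin partner of rank 22. At chr11:68908358-68908397 (40 bp) the ranks were 17 and 10, and at chr13:94269677-94269695 (19 bp) they were 12 and 18. The list of 10 closed with chr6:31166494-31166609 (116 bp), ranks 8 and 24, and chr14:65962862-65962873 (12 bp), ranks 19 and 14. Of these 10 antibody peaks, 3 were longer than 50 bp, whereas the partners were between 47 and 116 bp long.

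Some antibody peaks in pairs were very short. The antibody peak was under 20 bp wide in 33 pairs (9.68%, 6.76 to 13.3%), against 95 of the 2166 antibody peaks without a partner (4.39%, 3.56 to 5.34%). In the 33 pairs the antibody fold ran from 11.0 to 57.6 with a median of 25.3, and 30 of them stood in fold band 1. Their biotin partners were 21 to 165 bp wide with a median of 86 bp, and 25 of the 33 antibody peaks lay wholly within the partner. On the biotin side, 4 pairs (1.17%) had a peak under 20 bp. Within antibody band 1 such narrow peaks made up 12.8% (8.82 to 17.8%) of the 234 with a partner and 12.5% (9.39 to 16.2%) of the 392 without. Fold and width ran in opposite directions in both lists. The rank correlation of fold and width was -0.40 for antibody peaks and -0.53 for biotin peaks in pairs, and -0.48 and -0.56 for those without a partner.

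A wider peak has more bases at which it can meet another, so the overlap rule itself favours wide peaks, and widths of peaks with and without a partner are given only as a description. Over whole lists the medians were close, 87 and 90 bp for antibody peaks with and without a partner and 86 and 81 bp for biotin peaks. Within the fold bands, peaks with a partner had the higher median in all 4 bands of both lists, by 12.5 to 29.5 bp. In antibody band 1 the medians were 79 bp (234 peaks) and 66.5 bp (392 peaks), and in antibody band 4 they were 138 bp (20 peaks) and 122 bp (607 peaks). In biotin band 1 they were 72.5 and 53 bp, and in biotin band 4 they were 147 and 117.5 bp. Other definitions of a partner were applied to widths after the data had been seen. With the nearest peak at a centre distance within 200 bp, peaks with a partner had the higher median in all 8 bands, by 8 to 37.5 bp. When the summits also had to lie within 50 bp, most of the differences were smaller than those by overlap. Antibody band 1 went to 7 bp, biotin bands 1 to 4 went to 13, 11.5, 1.5 and 18 bp, and antibody band 4 turned to -3 bp. Antibody bands 2 and 3 stood at 24.5 and 33.5 bp, against 25.5 and 28 bp by overlap. Only 277 of the overlapping pairs (81.2%) had summits within 50 bp, so peaks of the others could change to being without a partner. Nothing is therefore read from the smaller differences.

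**Figure D3:**
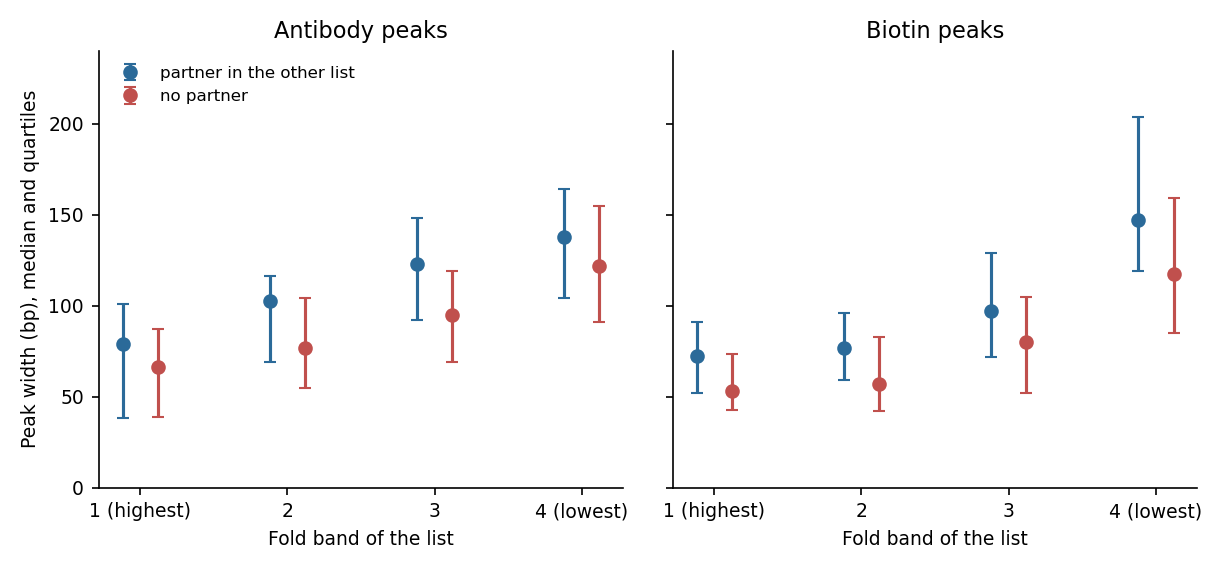
Median peak width in bp with lower and upper quartiles, for antibody peaks (left) and biotin peaks (right) in the 4 fold bands of each list. Peaks with a partner (blue) had the higher median in each band, and median width rose from band 1 to band 4 in both groups.

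Some sites stood at very different places in the 2 lists. The percentiles differed by over 50 points in 51 pairs (15.0%, 11.3 to 19.2%), with the higher percentile on the antibody side in 47 and on the biotin side in 4. Since the lists differ so much in length and the pairs are mostly high in the longer one, nothing is read from that split. The widest gap was at chr11:109287366-109287401, where an antibody peak with a fold of 19.8 (percentile 89.6) met a biotin peak of 269 bp with a fold of 2.41 (percentile 0.553). The site at chr8:108578308-108578376 was alike, with an antibody percentile of 85.2 and a biotin percentile of 1.38 in a peak of 229 bp. At chr14:54853132-54853235 the percentiles were 89.9 and 6.50, at chr11:51669834-51669913 they were 92.0 and 10.5, and at chr4:132642082-132642144 they were 82.9 and 3.18. In each of these 5 sites a shorter antibody peak lay wholly inside a wide biotin peak of 120 to 269 bp.

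The 5 sites ranked highest by biotin relative to antibody had the mirror arrangement of widths in 4 cases. At chr3:21975591-21975755 an antibody peak of 165 bp with a fold of 7.29 (percentile 27.5) enclosed a biotin peak of 50 bp with a fold of 11.4 (percentile 92.7). At chr5:75440434-75440654 an antibody peak of 221 bp (percentile 40.6) enclosed a biotin peak of 82 bp (percentile 87.8). The peaks at chr11:100707283-100707427 (percentiles 24.2 and 78.3) and chr6:119450345-119450464 (28.0 and 80.6) were staggered, with biotin peaks of 47 and 42 bp. The exception was chr13:24709823-24709901, whose peaks of 79 and 87 bp were nearly alike in width while the percentiles were 38.9 and 93.9. In 9 of these 10 sites the list with the lower percentile held the wider peak. The 10 sites were picked by their fold percentiles, and fold and width ran in opposite directions in both lists. The widths at these sites are therefore a description, and nothing is read from the count.

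The weakest common sites were broad. The lowest sum of percentiles was at chrX:12924283-12924455, where the antibody fold was 3.999 (percentile 1.91) and the biotin fold 2.62 (percentile 0.968), with peaks of 173 and 168 bp that shared 97 bp. The sites at chr4:116961741-116961851, chr2:32350791-32351207, chr7:74517687-74517847 and chr17:23939852-23939994 followed, with antibody folds of 6.12 to 6.58 and biotin folds of 2.71 to 3.12. Of these 5, the chromosome 2, 7 and 17 sites were also among the 5 with the longest overlap, with 278, 134 and 141 bp in both peaks. The others with long overlaps were chr1:133096727-133096914 (161 bp) and chr9:117949358-117949484 (127 bp). Of these 5 long overlaps, the last alone had an antibody percentile above 50, at 51.7.

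The 5 largest summit distances occurred at sites with a biotin fold below the list's median of 5.61. The largest distance was 205 bp at chr13:96662119-96662298, with folds of 4.96 and 4.32, and the next was 177 bp at chr14:75247555-75247616, with folds of 7.38 and 3.92. At chr2:32350791-32351207 it was 174 bp, although the overlap there was the longest of all. The distances at chr11:93829749-93829794 and chr1:145624419-145624443 were 149 and 144 bp, and at both a short antibody peak lay within a biotin peak of over 200 bp. At the last of these the antibody fold was 9.65, just above the list's median of 9.43, and at the other 4 it was below that median.

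The shortest overlap was 2 bp and was found in 4 pairs, at chr2:25110955-25110966, chr5:87233281-87233287, chr10:80141080-80141092 and chr13:113217871-113217905. The first 3 were strong sites, with antibody folds of 34.3, 52.4 and 45.9 and biotin folds of 18.7, 17.3 and 15.3. The 8 pairs that overlapped by at most 5 bp had antibody folds of 11.0 to 52.4 with a median of 33.5, and summits 13 to 76 bp apart. Just outside the rule lay 8 couples of an antibody and a biotin peak, neither with a partner, with at most 5 bp between them. These had antibody folds of 13.3 to 22.8 with a median of 16.5, and summits 19 to 116 bp apart with a median of 31 bp, against 25.5 bp for the 8 pairs just inside. At chr4:153535017-153535037 and chr11:75780142-75780165 the biotin peak was directly adjacent, with 0 bp between, and the antibody folds were 14.0 and 22.4. Couples with a gap of up to 50 bp numbered 25, and they had antibody folds of 7.39 to 33.3 (median 15.5), biotin folds of 3.87 to 15.1 (median 6.31) and summits 19 to 139 bp apart (median 52 bp). The ranges on both sides of the limit overlapped, while the median antibody fold was higher just inside it. With 8 pairs and 8 couples within 5 bp of the limit, nothing is read from this difference.

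The deposited p-value was not used to rank the sites, and many peaks shared the value 0. It was listed as 0 for 87 antibody peaks in pairs (25.5%), where 16.2% of all antibody peaks had that value, and for 90 biotin peaks in pairs (26.4%), where 20.1% of all biotin peaks did. Both values were listed as 0 in 24 pairs (7.04%) and neither in 188 (55.1%). The p-value belongs to the same peaks as the overlap, so nothing is read from these shares. The highest p-value of a peak in a pair was 4.58e-12 by antibody and 7.98e-12 by biotin.

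About as many common sites had a neighbouring peak within 50 kb as had none. In 172 pairs (50.4%, 45.0 to 55.9%) no other peak of either list lay within 50 kb, and in 169 (49.6%) at least 1 did. Another antibody peak lay within 50 kb of 151 paired antibody peaks (44.3%, 38.9 to 49.7%) and of 834 without a partner (38.5%, 36.4 to 40.6%). Another antibody peak lay within 10 kb in 81 pairs (23.8%, 19.3 to 28.6%), against 399 of the 2166 antibody peaks without a partner (18.4%, 16.8 to 20.1%), and the intervals overlap. For biotin peaks the shares were 9.97% (7.004 to 13.7%) with a partner and 9.95% (7.14 to 13.4%) without. In 52 pairs (15.2%) another peak stood within 1 kb, an antibody peak in 39 and a biotin peak in 20. The gap to that antibody peak had a median of 486 bp (41 to 888 bp). Another antibody peak stood within 1 kb of 11.4% of antibody peaks with a partner and of 8.77% without. For biotin peaks and another biotin peak the shares were 5.87% and 5.24%. The intervals overlapped in both lists, which does not show that the shares are equal, and no test was made. The antibody share was higher with a partner at 1, 10 and 50 kb. The biotin share was slightly higher with a partner at 1 and 10 kb and lower at 50 kb (15.8% against 16.8%). Whether neighbours within 1 kb are separate sites or fragments of 1 broad call was not tested.

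The gap between neighbouring common sites had a median of 3692602 bp. Of 321 couples of neighbouring common sites on the same chromosome, 6 were within 10 kb of each other, and no run of 3 was found. The number to be found for sites placed at random was not computed, so 6 is called neither few nor many. The closest was at chr2:156005274-156005998, with 486 bp between the pairs, followed by chr4:32325633-32326357 (502 bp) and chr4:33334834-33335562 (510 bp). The last of these joined the strong site at chr4:33334915-33334942 to another site with folds of 17.9 and 7.01. At chr4:32325633-32326357 the antibody folds of both sites were nearly equal, 21.6 and 21.8, while the biotin folds were 10.2 and 4.23. At chr17:47641985-47645257 the gap was 2904 bp and the folds were 25.8 and 6.82 at one site and 7.91 and 4.98 at the other. At chr1:130508458-130511646 it was 2951 bp, with folds of 5.69 and 3.75 beside 22.1 and 19.6. The sixth couple, at chr14:54847302-54853328, was 5686 bp apart, with folds of 8.56 and 6.92 beside 19.9 and 3.24. At chr2:156005274-156005998 the folds were 21.2 and 4.48 beside 14.0 and 7.52. The same site was the higher by both methods in 3 of the 6 couples, and the order was opposite in the other 3.

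Common sites were found on 20 of the 21 chromosomes that held a peak in either list. The mitochondrial chromosome, with 1 biotin peak and 0 antibody peaks, had none. Chromosome 2 held the most, 34 sites, which were 18.4% (13.1 to 24.7%) of its antibody peaks and 60.7% (46.8 to 73.5%) of its biotin peaks. Both intervals include the shares over the whole lists, 13.6% and 47.2%. The biotin share was higher on chromosomes 13 (70%, 45.7 to 88.1%) and 14 (61.1%, 35.7 to 82.7%). By number of sites chromosome 11 followed with 29, which were 15.8% (10.9 to 22.0%) of its antibody peaks and 45.3% (32.8 to 58.3%) of its biotin peaks. Chromosome X held the fewest, 4 sites (9.09% of antibody peaks, 2.53 to 21.7%, and 36.4% of biotin peaks, 10.9 to 69.2%). Chromosome 19, with 93 antibody peaks, held 6 sites (6.45%, 2.40 to 13.5%). That interval lies just below the share over the whole antibody list, but many chromosomes were looked at and nothing is read from it. Most chromosomes held too few sites to place their share more closely than these wide intervals.

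**Figure D4:**
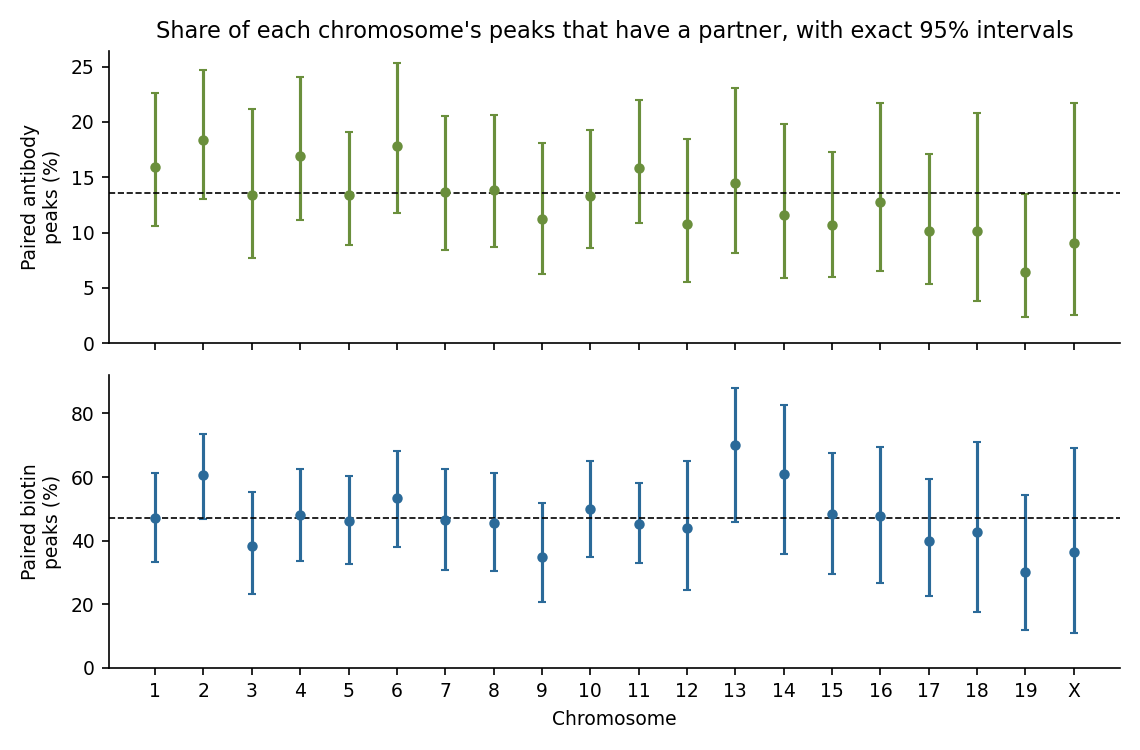
Percentage of antibody peaks (top) and biotin peaks (bottom) with a partner on each chromosome, with exact 95% intervals; dashed lines mark the share over the chromosomes shown. Chromosomes 2, 4, 6 and 13 lie above the line in both panels and chromosomes 3, 5, 9, 12, 17, 18, 19 and X below it. Their intervals overlap those of most others.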

How the data were processed

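Peak lists of mouse CD4+ T cell ChIP-seq were analysed. The build mm9 and the tools Bowtie 0.12.7 and CASAVA 1.4 are named in the submitters' processing notes. An FDR of 0.05 stands in the names of both ChIP lists, and their peak caller is not given in the sources used. The authors deposited a fold per peak, a linear ratio whose reference is not stated, per the file headers. The p-value per peak is likewise the authors' deposited value. The common list was attached to the antibody input and has no header; its column order was taken from the ChIP lists. Each of its rows was checked against the ChIP lists.

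Starts were raised by 1. Peaks were paired by an overlap of at least 1 bp, which gave 341 pairs, and overlap, summits, ranks within a list and neighbours were computed with Python 3.11.15, pandas 2.3.3 and scipy 1.17.1. The pairing was tested on simulated data, where 200 of 200 planted pairs were found. Named sites are the 10 with the lowest rank sum, the 5 at each end of the percentile difference, the 5 lowest percentile sums, the 5 longest and 5 shortest overlaps, the 5 largest summit distances and the closest couples. The members and these rules were chosen with earlier results of these data known. Alternatives were an overlap of 50% of the shorter peak, centres within 200 bp, the top 50% of each list by fold, leaving out peaks with a same-list neighbour up to 1000 bp away, and leaving out chromosome X.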

Additional observations from a re-analysis of the deposited data

How the results depend on the processing

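Of 34 recomputed values of the pairs, 29 stayed within the interval or tolerance of the value given and 5 moved. The limits were 1.5 times for a count, the 95% interval for a share or median and 0.1 for a rank correlation. Leaving out chromosome X kept 337 pairs and an overlap of 50% of the shorter peak kept 313. These settings use nearly the same pairs and could change little, so the tally is a weak check. With the top 50% of each list by fold, 203 pairs remained, and the median fold percentiles were 93.4 for antibody and 80.4 for biotin peaks, as follows from leaving out the lower ranks. With centres within 200 bp, which admits couples that do not overlap, 83.7% of pairs overlapped by at least 50% of the shorter peak and 57.2% had each summit in the partner. The median summit distance was 18 to 22 bp in every setting tried. The width difference within fold bands was positive in all 8 bands with centres within 200 bp (8 to 37.5 bp). When summits also had to lie within 50 bp, it turned to -3 bp in antibody band 4 and shrank in 6 of the other 7. Among these 6 the largest changes were in biotin band 3 (from 17 to 1.5 bp) and biotin band 4 (from 29.5 to 18 bp). The cause was not tested. The forkhead motif settings listed for these sites were not run, since mm9 sequence was not used. No paired analysis was possible because the groups hold single libraries, which also left no replicate to omit. The unknown read depth limits any statement on a site missing from a list.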
